A study of Mus musculus with 4 samples.

Results

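Growth factor receptor kinases are cell surface proteins that, in general, bind a ligand outside the cell, act in pairs and phosphorylate tyrosines inside it. This recruits the adaptors that feed the Ras-MAPK and PI3K pathways. The 10 genes described here are 9 such receptors outside the Fgf receptor family, Egfr, Erbb2, Erbb3, Igf1r, Insr, Pdgfrb, Flt4, Kdr and Kit, together with Kitl, the ligand of Kit. They were taken by symbol from the 37310 genes of the deposited table, and all 10 were found. The choice was made because several differed by more than 2-fold between the compared groups, so that their differences are given as a description and without a test. The data are mRNA-seq of JM8 mouse embryonic stem cells (mESCs), a line from the C57BL6/N strain. The 4 libraries are 2 of wild-type cells and 2 labelled Bmal1-/-, with both alleles of Bmal1 mutated by CRISPR/Cas9, the gene of the Clock partner in the molecular clock. All cells grew without feeders on gelatin in serum-free N2B27 with LIF, 1 µM PD0325901 and 3 µM CHIR99021 (2i + LIF medium). PD0325901 blocks Mek, a kinase downstream of these receptors, and CHIR99021 blocks Gsk3, in wild-type and labelled Bmal1-/- cells alike. The study worked with 1 mutant line grown from a clonal colony, with frameshift mutations in both alleles, and gave a later clone a name of its own where it was used. With 1 line behind each label, a difference between lines and the effect of Bmal1 cannot be told apart.

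Values are TMM-normalized read counts, which are reads of a gene divided by a factor of its library (trimmed mean of M values). Between 21504265 and 23329034 reads fell on genes in each library, and 3 reads corresponded to values of 2.82 to 3.19. mRNA of the targeted gene, listed as Arntl, was present in all libraries, at 678 and 733 in wild-type and 556 and 590 under the Bmal1-/- label. The paper reported no detectable Bmal1 mRNA by RT-qPCR and no detectable Bmal1 protein by Western blot in its Bmal1-/- cells. The reads here differ from that mRNA result, and the reason was not tested. The mRNA level therefore cannot serve as a check of genotype, and the text follows the labels. The 9 mESC identity genes of 10 that could be analysed, among them Pou5f1 and Nanog, summed to values of 100672 and 101232 in wild-type and 101721 and 103131 under the Bmal1-/- label. Within these sums 8 of the 9 genes differed with an adjusted p-value under 0.05 in limma, 4 higher (Nanog, Klf4, Tbx3 and Tdgf1) and 4 lower (Pou5f1, Sox2, Zfp42 and Esrrb), with log2 differences from −0.17 to 0.36. Nanog (0.25) and Tbx3 passed in every alternative, and the other 6 missed the threshold in at least 1. The same threshold in limma was passed by 52.6% of all 14510 genes tested, 24.0% as higher and 28.6% as lower.

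In development these receptors are known by the tissues that need them. Kit and its ligand Kitl maintain germ cells, melanocytes and blood progenitors. The ErbB receptors (Egfr, Erbb2, Erbb3) act in epithelia, heart and nerve, where Erbb2 has no ligand of its own and Erbb3 has a weak kinase, so that they work as pairs. Insr and Igf1r bind insulin and the insulin-like growth factors. Pdgfrb marks pericytes and mesenchyme, and Kdr and Flt4 are the Vegf receptors of blood and lymphatic endothelium.

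Upstream sequences are shown for Flt4 and Egfr, which were higher under the Bmal1-/- label, and for Kitl, which was lower, because Bmal1 with Clock binds the E-box CACGTG. RefSeq promoter windows (GRCm38.p6) were matched for 7 of the 10 genes, and the 250 bases before the start are printed on the gene's strand. Capitals mark the GC box GGGCGG, read on both strands (CCGCCC), and the TATA box TATAAA, also read on both strands. Flt4 is at chr11:49609429-49609678 (+), Egfr at chr11:16751953-16752202 (+) and Kitl at chr10:100015571-100015820 (+).
Flt4: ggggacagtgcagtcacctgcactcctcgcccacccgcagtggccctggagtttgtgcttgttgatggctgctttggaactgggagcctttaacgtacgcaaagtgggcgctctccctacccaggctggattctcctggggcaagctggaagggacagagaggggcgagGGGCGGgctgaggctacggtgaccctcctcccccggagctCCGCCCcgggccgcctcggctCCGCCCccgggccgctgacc
Egfr: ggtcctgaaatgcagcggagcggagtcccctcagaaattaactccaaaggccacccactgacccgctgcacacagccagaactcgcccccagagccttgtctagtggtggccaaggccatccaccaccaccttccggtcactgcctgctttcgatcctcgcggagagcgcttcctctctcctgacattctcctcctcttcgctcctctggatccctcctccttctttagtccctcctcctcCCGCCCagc
Kitl: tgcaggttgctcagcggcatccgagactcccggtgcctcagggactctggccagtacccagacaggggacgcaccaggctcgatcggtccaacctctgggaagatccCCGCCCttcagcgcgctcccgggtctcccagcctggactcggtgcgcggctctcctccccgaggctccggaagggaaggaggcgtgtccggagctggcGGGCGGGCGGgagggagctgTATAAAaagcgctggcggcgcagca

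CACGTG was found in 0 of the 8 windows of these 7 genes (Kit has 2), against 6.02% of all 32851 windows. The GC box was found for 6 of the 7 genes, Kit, Kdr, Igf1r, Kitl, Egfr and Flt4, against 32.7% of all windows, and its 2 matches near the start of Kitl overlap each other. A TATA box was found for 1 gene, Kitl, against 12.4% of all windows. The windows held 11 to 42 CpG dinucleotides each, Egfr with the fewest and Igf1r with the most, against a median of 6 over all windows. These matches describe letters in a window and not sites of binding.

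Of the 10 genes, 9 reached a mean of 10 over all libraries and entered the fit. Of these 9, 5 were higher by more than 2-fold under the Bmal1-/- label (Flt4, Pdgfrb, Igf1r, Egfr and Erbb3) and 1 was lower by more than 2-fold (Kitl). Among all 14510 genes tested, 7.29% differed by more than 2-fold, 5.83% as higher and 1.46% as lower, which is given for scale since the genes were picked on this contrast. The values of the groups did not overlap for 8 genes that were higher and 1 that was lower, against 34.6% and 41.4% of all genes tested. The genes just inside the 2-fold limit were Erbb3 and Egfr, with log2FC (the log2 fold change, mutant label minus wild-type) of 1.04 and 1.06, and Kitl with −1.10. The nearest gene outside it was Insr at 0.65, followed by Erbb2 at 0.26 and Kit at 0.23.

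**Figure D1:**
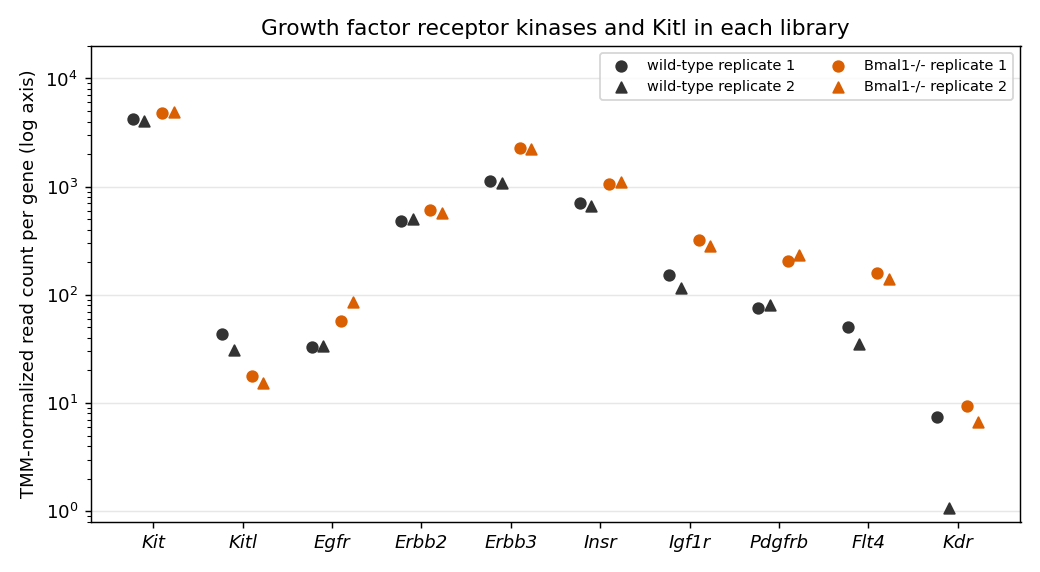
TMM-normalized read count (log axis) of the 9 receptor kinases and Kitl in each of the 4 libraries, 1 point per library, black for wild-type and orange for the Bmal1-/- label. Kit had the highest values (4038 to 4887) and Kdr the lowest (1.06 to 9.39), and only Kdr had overlapping groups.

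Kit, the receptor of stem cell factor, was the most abundant of the genes. Its values were 4266 and 4038 in wild-type and 4815 and 4887 under the Bmal1-/- label. The groups lay apart, but the difference was small, with a log2FC of 0.23 (SE, the standard error from limma, 0.04). Kitl, stem cell factor itself, was present at far fewer reads. Its values were 43.2 and 30.8 in wild-type, from 41 and 29 reads, and 17.8 and 15.3 under the Bmal1-/- label, from 19 and 16 reads. Both wild-type values were above both others, and the mean under the Bmal1-/- label was 44.7% of wild-type (log2FC −1.10, SE 0.29). Without wild-type replicate 1, the library with the higher value, the log2FC was −0.86, and without Bmal1-/- replicate 2 it was −0.99. The receptor and its ligand thus differed in opposite directions. The ratio of Kit to Kitl per kilobase of exon, which scaling a library by a single factor does not change, was 99.0 and 131 in wild-type and 270 and 321 under the Bmal1-/- label.

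Kit is also a gene of early germ cells, and germ cell markers were examined beside it. All 6 markers listed passed the filter on low values, and their summed values were 1148 and 1145 in wild-type and 2527 and 2807 under the Bmal1-/- label. Dazl, an RNA-binding protein of germ cells, held most of that sum, with 615 and 594 against 2060 and 2336 (log2FC 1.86, Benjamini-Hochberg adjusted p = 2.0e-15 in limma). Ddx4 and Nanos3, which mark germ cells as well, fell, with log2FC values of −0.45 (adjusted p = 9.8e-04) and −0.68 (adjusted p = 0.0061 from limma). Nanos3 missed the threshold without wild-type replicate 1 (adjusted p = 0.074 from limma), without Bmal1-/- replicate 1 (0.058) and with DESeq2 (0.093). Their part in the values of Kit and Kitl was not tested. In bulk libraries such as these, fewer cells that express a gene and less RNA per cell cannot be told apart.

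Among the 3 ErbB receptors chosen, Erbb3 was the most abundant and Egfr the least, while Erbb4, the remaining member of the family, had no read in any library. Erbb3, the partner with a weak kinase, had values of 1117 and 1089 in wild-type and 2271 and 2251 under the Bmal1-/- label. Replicates lay close together, with ranges within a label of 0.04 and 0.01 on the log2 scale, and the log2FC was 1.04 (SE 0.05). Erbb2, the partner without a ligand, had 484 and 506 in wild-type and 614 and 573 under the Bmal1-/- label. Its groups did not overlap, and the log2FC was 0.26 (SE 0.07). Egfr, the receptor of Egf and Tgfa, had 32.7 and 33.99 in wild-type and 57.3 and 86.8 under the Bmal1-/- label. Both of the latter values were higher, but they differed from each other by 0.59 on the log2 scale. The log2FC of 1.06 (SE 0.22) was 0.76 with Bmal1-/- replicate 2 left out and 1.35 when Bmal1-/- replicate 1 was left out, and 0.82 with quantile normalization. The ratio of Erbb3 to Erbb2 per kilobase was 2.00 and 1.86 in wild-type and 3.20 and 3.40 under the Bmal1-/- label. The ratio of Erbb2 to Egfr was 32.2 and 32.3 in wild-type and 23.3 and 14.4 under the Bmal1-/- label.

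The insulin and insulin-like growth factor receptors were both higher. Insr had values of 707 and 667 in wild-type and 1066 and 1096 under the Bmal1-/- label, a log2FC of 0.65 (SE 0.06). Igf1r had 154 and 117 in wild-type and 320 and 285 under the Bmal1-/- label, a log2FC of 1.17 (SE 0.13). For both genes the 2 labels were apart in all libraries. The wild-type values of Igf1r differed more from each other, and its log2FC was 0.97 with wild-type replicate 2 left out and 1.36 when wild-type replicate 1 was left out. Insr exceeded Igf1r per kilobase in every library, by 2.13-fold and 2.64-fold in wild-type and by 1.54-fold and 1.78-fold under the Bmal1-/- label.

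Pdgfrb, the receptor of Pdgfb and a marker of mural cells, had values of 74.8 and 80.7 in wild-type and 204 and 234 under the Bmal1-/- label. The groups were well apart, with the lowest of the higher values 2.52-fold above the highest wild-type value. The log2FC was 1.48 (SE 0.13) and lay between 1.38 and 1.58 with 1 library left out. Mesenchymal markers were examined beside Pdgfrb. Of 11 listed, 3 passed the filter on low values, Thy1, Col1a1 and Tagln, with values from 14.9 to 62.0, and Thy1, a surface protein, was the only 1 of these with an adjusted p-value under 0.05 (log2FC 0.59, adjusted p = 0.026 from limma). That p was 0.13 without wild-type replicate 1, 0.19 without Bmal1-/- replicate 2 and 0.18 with DESeq2. Summed values were 98.0 and 97.7 in wild-type and 128 and 123 under the Bmal1-/- label. Dcn and Lum were at 0 in all 4 libraries, and Col3a1 and Acta2 had no more than 1 read in any. The part of these markers in the values of Pdgfrb was not tested.

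Flt4, the receptor of Vegfc and Vegfd, showed the highest log2FC of the 10 genes. Its values were 50.6 and 35.1 in wild-type and 161 and 141 under the Bmal1-/- label, and the log2FC was 1.81 (SE 0.18). It was 1.56 with wild-type replicate 2 left out and 2.07 when wild-type replicate 1 was left out. Kdr, the main Vegfa receptor of blood vessels, was close to the limit of detection. It had 7 and 1 reads in wild-type and 10 and 7 reads under the Bmal1-/- label, or values of 7.37 and 1.06 against 9.39 and 6.68. The groups overlapped, and no difference of Kdr was detectable at this depth.

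Endothelial markers were examined beside Flt4 and Kdr. Of 10 listed, 7 passed the filter on low values, with a median log2FC of 0.53. Of these, 3 rose with an adjusted p-value under 0.05 in limma, Tie1, Pecam1 and Eng, against 24.0% of all genes tested. Among these 3 only Tie1 rose by more than 2-fold, from 65.3 and 71.2 in wild-type to 918 and 819 under the Bmal1-/- label (log2FC 3.65). The rise of Eng was small (log2FC 0.15, adjusted p = 0.022), and its adjusted p was between 0.066 and 0.14 without wild-type replicate 1, Bmal1-/- replicate 1 or Bmal1-/- replicate 2. It was 0.053 with DESeq2 and 0.12 in limma without the trend. Esam, an endothelial adhesion protein, had lower values, 22.1 and 27.6 against 14.1 and 14.3 (log2FC −0.76, adjusted p = 0.051 from limma). Summed values of the 10 markers were 3172 and 3324 in wild-type and 5346 and 5412 under the Bmal1-/- label. Most of this was Pecam1, an adhesion protein that mESCs also make, with 1767 and 1798 against 2885 and 3028 (log2FC 0.73, adjusted p = 7.3e-11). The part of these markers in the values of Flt4 and Kdr was not tested. Emcn was at 0 in all libraries, and Cdh5 and Erg, which define endothelium, had no more than 3 reads in any. Blood markers were also few, with Ptprc at no more than 1 read, Hbb-bh1 at 0 and summed values of 104 and 101 in wild-type and 133 and 113 under the Bmal1-/- label. The 3 of the 8 blood markers that passed the filter on low values had log2FC from 0.02 to 0.58.

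Markers of 2 further cell types were examined. Of all genes tested, 7.21% were called, with an adjusted p-value under 0.05 in limma and a difference past 2-fold. Higher genes made up 5.75% and lower genes 1.45%. Of 6 neural markers, 5 were tested and 3 fell past 2-fold, Pax6, Map2 and Tubb3, with log2FC values of −1.71, −1.44 and −1.22 (adjusted p = 3.4e-04, 8.4e-09 and 5.7e-13 from limma). Their list summed to 4052 and 3791 in wild-type and 2257 and 2129 under the Bmal1-/- label, most of it Tubb3. Of 9 primitive endoderm markers, 6 were tested and 2 called, Sox17 as higher (log2FC 1.27, adjusted p = 0.0020 from limma) and Sox7 as lower (−2.41, adjusted p = 6.0e-06). Sox17 was under 2-fold with quantile normalization (0.97) and with a pseudocount of 10 (0.88). The primitive endoderm sums were 12525 and 12624 in wild-type and 12439 and 12081 under the Bmal1-/- label. The part of either list in the values of the 10 genes was not tested.

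**Figure D2:**
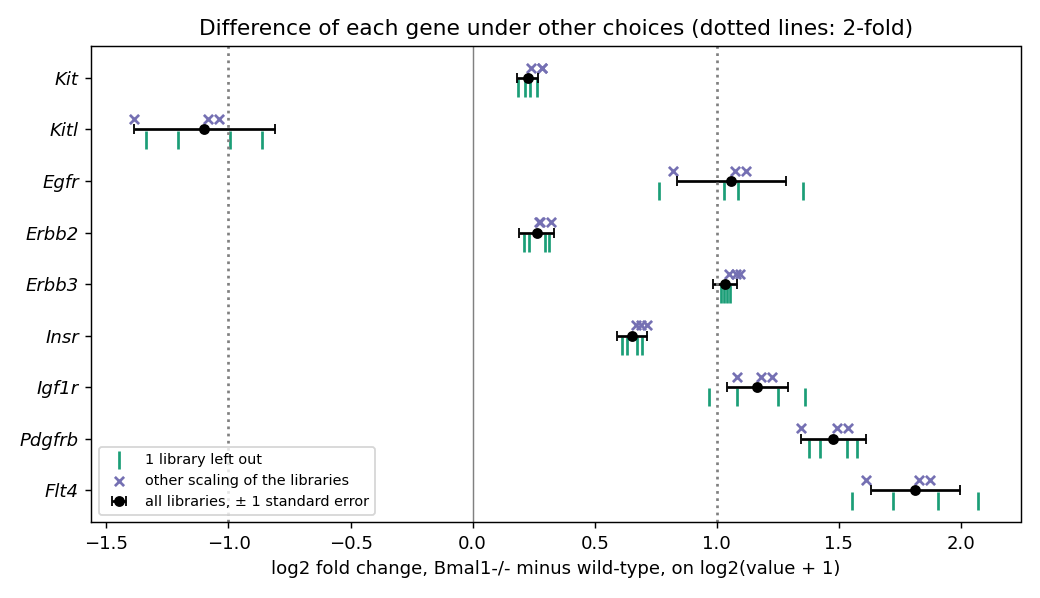
Difference as log2FC (Bmal1-/- label minus wild-type, on log2(value + 1)) of the 9 genes that entered the fit. Black points with bars are the values from all libraries ± 1 standard error, green ticks leave out 1 library and purple crosses use another scaling of the libraries, and dotted lines mark 2-fold. Kitl lay below 0 and the other 8 genes above 0 in each of these fits, while Egfr, Igf1r and Kitl crossed the 2-fold lines in some.

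Levels were then compared between genes, as the TMM-normalized value per kilobase of merged exons. In wild-type the order was Kit at 712 ± 27.6 (SD, n = 2 libraries), Erbb3 at 183 ± 3.27, Erbb2 at 94.9 ± 3.00, Insr at 71.1 ± 2.91, Igf1r at 30.2 ± 5.84 and Pdgfrb at 14.2 ± 0.77. Kitl at 6.33 ± 1.5, Flt4 at 5.20 ± 1.33, Egfr at 2.94 ± 0.08 and Kdr at 0.58 ± 0.61 followed. Kitl and Flt4 were the only neighbours in this order whose 2 libraries overlapped. With the longest annotated transcript in place of merged exons their order turned, with Flt4 at 6.84 and Kitl at 6.55. In the libraries labelled Bmal1-/- the order was the same from Kit to Pdgfrb, and Erbb2 at 114 and Insr at 112 now overlapped. Kitl came after Flt4 and Egfr, at 2.83 ± 0.31 per kilobase against 18.3 ± 1.68 and 6.36 ± 1.84. Kit stood at percentile 85.0 of all genes tested in wild-type and Erbb3 at percentile 58.1, which was 74.3 under the Bmal1-/- label. Egfr stood at percentile 3.09 in wild-type and 5.98 under the Bmal1-/- label.

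**Figure D3:**
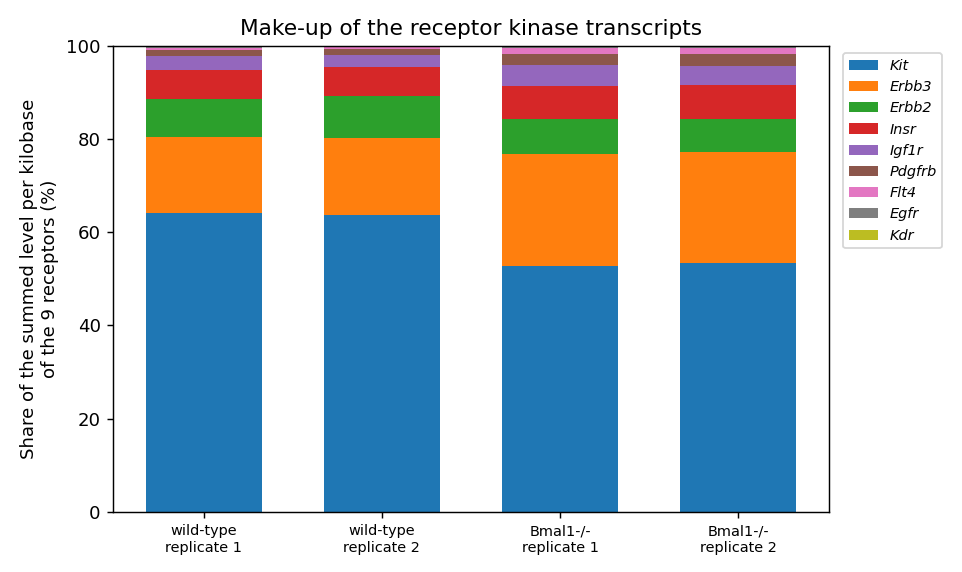
Stacked bars of the share (%) of each receptor in the summed level per kilobase of the 9 receptors, 1 bar per library. Kit held 64.1% and 63.7% of the sum in wild-type and 52.7% and 53.5% under the Bmal1-/- label, and Erbb3 held 16.3% and 16.6% against 24.1% and 23.9%.

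The summed level of the 9 receptors was 1141 and 1088 per kilobase in wild-type and 1566 and 1568 under the Bmal1-/- label. Kit and Erbb3 made up the larger part of it in every library. Igf1r held 3.01% and 2.40% of the sum in wild-type and 4.57% and 4.06% under the Bmal1-/- label, and Pdgfrb held 1.20% and 1.35% against 2.38% and 2.72%. Flt4, Egfr and Kdr were each under 1.3% of the sum throughout.

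Other genes of the same signalling system were counted from 3 lists, in the fit over all 14510 genes tested. The lists were chosen with earlier results of these data known, so the shares called are given as a description. A gene was called with an adjusted p-value under 0.05 and an absolute log2FC above 1, which 7.21% of all genes tested reached, 5.75% as higher and 1.45% as lower. An adjusted p-value under 0.05 without a fold limit was reached by 52.6%, 24.0% as higher and 28.6% as lower.

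Of 31 other receptor tyrosine kinases, without the Fgf and Eph receptors, 19 were tested and 5 called, all of them higher (26.3% of those tested). With quantile normalization 3 were called higher and 2 lower, without wild-type replicate 1 these numbers were 4 and 1, and with DESeq2 they were 4 and 0. Tie1, a receptor of the angiopoietin system, rose from 65.3 and 71.2 to 918 and 819, a log2FC of 3.65 (SE 0.10, adjusted p = 1.4e-16 from limma). Ddr2, a collagen receptor, rose from 376 and 346 to 1994 and 1999, a log2FC of 2.46 (adjusted p = 4.0e-17). Mertk, a Gas6 receptor, and Ret, the Gdnf receptor, rose by 1.36 and 1.18 on the log2 scale (adjusted p = 4.2e-05 for both), and Ret was under 2-fold with quantile normalization (0.94). A further 6 kinases fell without reaching 2-fold, Ror1, Axl, Ntrk3, Tyro3, Ddr1 and Ptk7, with log2FC from −0.89 to −0.21. Of these, Ror1 and Axl passed 2-fold and were called lower with quantile normalization (log2FC −1.19 and −1.03), as was Ror1 without wild-type replicate 1 (−1.28). In contrast, 4 missed the threshold in DESeq2, with adjusted p of 0.25 for Ror1, 0.12 for Axl, 0.12 for Ntrk3 and 0.11 for Ddr1. With 1 library left out, the smallest falls were log2FC −0.51 for Ror1 and −0.65 for Axl, both without wild-type replicate 2. For Ntrk3 and Ddr1 they were −0.51 and −0.28, both without wild-type replicate 1. Tyro3, of the same family as Mertk, fell from 2922 and 2970 to 2311 and 2167 (log2FC −0.40, adjusted p = 6.0e-07). The median log2FC of the 19 kinases was 0.14, against −0.03 for all genes tested.

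Of 27 ligands of the ErbB, insulin, Pdgf, Vegf and Kit receptor families, leaving out Kitl, 16 were tested and 2 called, both higher and both from few reads (12.5% of those tested). Neither was called with DESeq2. Their wild-type means, 8.45 for Tgfa and 7.94 for Egf, were under the filter value of 10. Both were thus tested only through the Bmal1-/- libraries, where they were higher. Their p-values and the share called are therefore tied to the contrast and are given as a description. Tgfa, a ligand of Egfr, had values of 10.5 and 6.37 in wild-type and 20.7 and 24.8 under the Bmal1-/- label (log2FC 1.36, adjusted p = 0.0049 from limma). The adjusted p was 0.067 without Bmal1-/- replicate 2, and lay between 3.6e-04 and 0.073 over the alternatives. Egf had 6.32 and 9.56 against 14.1 and 24.8 (log2FC 1.17, adjusted p = 0.022). Without wild-type replicate 1 its log2FC was 0.90 with an adjusted p of 0.069, and over the alternatives the adjusted p lay between 0.0050 and 0.14, and without Bmal1-/- replicate 2 it was under the filter on low values. Hbegf, another ligand of Egfr and far more abundant, had 314 and 320 against 317 and 357 (log2FC 0.08, adjusted p = 0.45). Nrg1, a ligand of Erbb3, had a log2FC of 0.41 (adjusted p = 0.24), with values from 20.0 to 33.4. Nrg2, another neuregulin that binds Erbb3, rose from 33.7 and 26.6 to 61.1 and 56.3 (log2FC 0.95, adjusted p = 0.0014 from limma and 0.030 from DESeq2). It passed 2-fold when wild-type replicate 1 was left out (log2FC 1.11), and narrowly with equal library totals and when Bmal1-/- replicate 2 was left out (1.00).

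Of the ligands of the other receptors, Vegfa rose from 1106 and 1095 to 1693 and 1623 (log2FC 0.59, adjusted p = 1.1e-08 from limma). Vegfc, the ligand of Flt4, had 669 and 645 against 603 and 599, and Vegfb fell, with a log2FC of −0.41 (adjusted p = 1.0e-04). Igf2, which binds Igf1r and Insr, rose from 35.8 and 40.4 to 63.9 and 64.8 (log2FC 0.74, adjusted p = 0.0042 from limma and 0.067 from DESeq2). Igf1 had no more than 3 reads in any library, and Ins1 and Ins2 were at 0 in all. Pdgfb had 11.6 and 19.1 against 15.0 and 17.2 (log2FC 0.10, adjusted p = 0.84). Without a fold limit, 6 of the 16 ligands were higher and 2 lower with an adjusted p-value under 0.05.

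Of 55 adaptors, inhibitors, co-receptors and binding proteins, 50 were tested and 4 called (8.0% of those tested), 1 higher and 3 lower. Cbl, the ubiquitin ligase that sends activated Egfr, Kit and Pdgf receptors to degradation, rose from 1116 and 834 to 2931 and 2958, a log2FC of 1.61 (SE 0.08, adjusted p = 1.8e-12 from limma). Its relative Cblb rose as well, by 0.47 on the log2 scale (adjusted p = 9.1e-06). Grb7, an adaptor of Erbb2 and Erbb3, fell from 466 and 463 to 177 and 149, a log2FC of −1.51 (adjusted p = 1.2e-10). Nrp2, the co-receptor of Flt4 for Vegfc, fell from 217 and 205 to 83.6 and 83.9 (log2FC −1.32, adjusted p = 4.1e-08). Dok2, an adaptor that damps Ras, fell from 173 and 164 to 72.3 and 74.4 (log2FC −1.19, adjusted p = 5.7e-07). Each of these 4 genes kept an adjusted p-value under 0.05 in all alternatives.

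Among the inhibitors, Grb10, which binds Insr and Igf1r, rose from 2350 and 2544 to 3535 and 3442 (log2FC 0.51, adjusted p = 1.9e-08 from limma). Igf2r, which clears Igf2, rose by 0.85 on the log2 scale (adjusted p = 6.0e-12). Errfi1 and Lrig1, which inhibit ErbB receptors, had log2FC values of −0.04 (adjusted p = 0.69) and 0.02 (adjusted p = 0.80). The phosphatase Ptpn6, which acts on Kit, fell from 770 and 835 to 533 and 491 (log2FC −0.65, adjusted p = 2.0e-07). Without a fold limit, 14 of the 50 genes were higher and 8 lower.

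**Figure D4:**
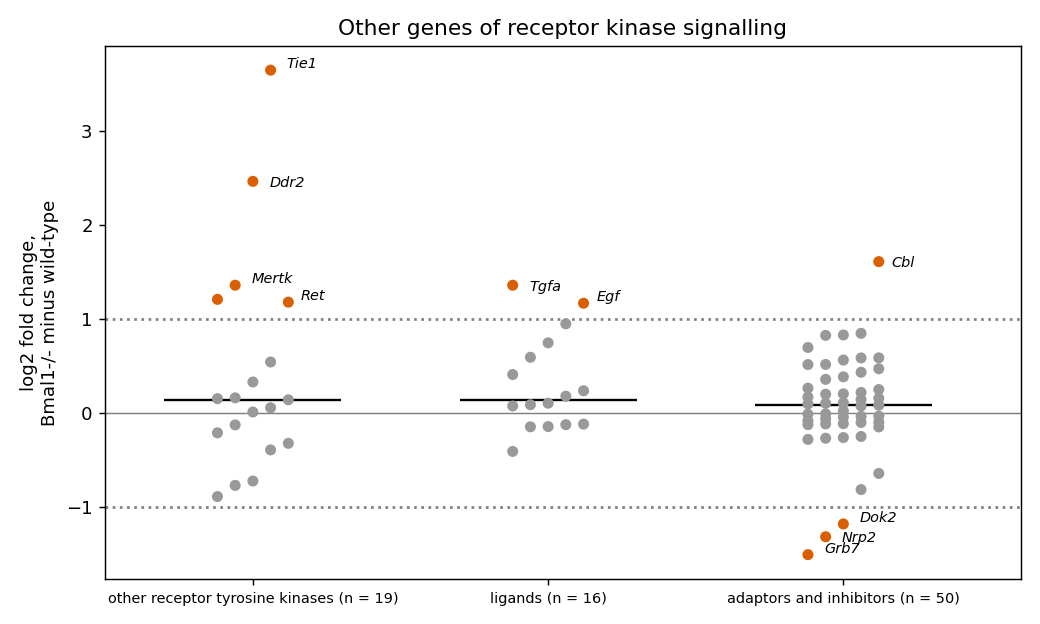
Difference as log2FC (Bmal1-/- label minus wild-type) of each tested gene in the 3 lists, with the number of genes tested under each column. Orange points are genes called, most of them named, black bars are medians (0.14, 0.14 and 0.09) and dotted lines mark 2-fold, and Tie1 at 3.65 lay farthest from 0.

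Several of the 10 genes lie beside other receptor genes, and the nearest protein-coding genes on either side were examined after the values above were seen. In the mm9 genome (NCBIM37, GENCODE vM1) Kit lies on chromosome 5 from 75970941 to 76052747, with Pdgfra 377 kb before it and Kdr 276 kb after it. Pdgfra had values of 32.7 and 22.3 in wild-type and 23.5 and 25.7 under the Bmal1-/- label (log2FC −0.13, adjusted p = 0.73 from limma), so that the 3 receptor genes side by side differed widely in level. Erbb2 lies on chromosome 11 from 98273784 to 98299030, and Grb7 starts 8.68 kb after it on the same strand. Erbb2 was slightly higher while Grb7 fell, as given above. Another gene, 1810046J19Rik, overlaps Erbb2 on the opposite strand and had values from 140 to 182, and since strand-aware counting is not stated its reads cannot be told apart from those of Erbb2 with certainty.

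Pdgfrb lies on chromosome 18 from 61204804 to 61244715, and Csf1r, the receptor of Csf1, starts 20.5 kb after it. Csf1r had 0 and 1 reads in wild-type, and values of 9.39 and 10.5 from 10 and 11 reads under the Bmal1-/- label. The mean of the latter values was 3.13-fold the value of 3 reads averaged over the wild-type libraries. Csf1r did not pass the filter on low values and was not tested. Igf1r lies on chromosome 7 from 75097713 to 75371484, and both of its neighbours were called higher. Pgpep1l, 10.01 kb after it, rose from 105 and 97.7 to 225 and 216 (log2FC 1.11, adjusted p = 2.3e-07 from limma), and Synm, an intermediate filament gene 193 kb before it, rose by 1.23 on the log2 scale (adjusted p = 8.9e-07). With quantile normalization Pgpep1l was just under 2-fold, at 1.00 on the log2 scale. Of the remaining genes, Egfr lies on chromosome 11 from 16652206 to 16818161 and Flt4 on the same chromosome from 49422765 to 49466241. Kitl and Erbb3 lie on chromosome 10, from 99478264 to 99563047 and from 128004579 to 128026708. Insr lies on chromosome 8 from 3150922 to 3279617, and Kdr on chromosome 5 from 76328852 to 76374483. Of the 17 neighbours that are not themselves among the 10 genes, 10 were tested, 2 were called higher and 1 lower, with a median log2FC of 0.06. Among all genes tested, 5.75% were called higher and 1.45% lower. Without a fold limit, 5 of these neighbours were higher and 4 lower with an adjusted p-value under 0.05 in limma. For all genes tested these shares were 24.0% and 28.6%.

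The genes tested whose profile over the 4 libraries was most like that of Flt4 were Nhsl2, Med12l and Gm15950, at Euclidean distances of 0.11, 0.13 and 0.15 between log2 values centred on each gene's mean. Those most like Kitl were Trim47, Letm2 and Lars2, at 0.07, 0.08 and 0.13. The profile holds 4 values and mostly the difference between labels, so that likeness is a description only.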

How the data were processed

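The authors trimmed paired 75-bp reads of stranded mRNA libraries, aligned them to mm9 with STAR 2.5.2b and deposited TMM-normalized signal values per gene (counts divided by a library factor, from NOISeq); the counter is not given in the sources used here. Every value was a whole multiple of the smallest value above 0 in its library (tolerance 0.01), so whole reads were recovered for 100% of values. Differences were fitted with limma 3.58.1 in R 4.3.3 (lmFit, eBayes with trend) on log2(value + 1), 2 libraries against 2, keeping genes whose mean reached 10, with Benjamini-Hochberg adjustment over all genes tested; such fold changes understate those of low genes. The paper describes 2 biological replicates of each line but not how separate their cultures were. The p-values therefore cover the spread between these libraries only.

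Gene lists were written by hand. The members and lists were chosen with earlier results of these data known. Named genes are the members, the list genes called (3 highest and 3 lowest where over 6), the ligands Egf, Tgfa, Hbegf, Nrg1, Igf1, Igf2, Pdgfb, Vegfa and Vegfc, the inhibitors Errfi1, Lrig1, Cbl and Grb10, the genes closest in profile to the highest and lowest member, and Arntl; others named were chosen after their values were seen. Alternatives changed the filter, pseudocount, scaling, trend, replicate block, libraries and tool (edgeR 4.0.16 and DESeq2 1.42.0 on whole reads). The fits were tested on simulated data. Exon lengths are from GENCODE vM1; all 37310 gene IDs matched it. Python 3.11.15 was used for tables and figures. Raw reads and the differentiation experiments were not analysed here, and 1 gene of the lists is counted but not reported here.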

Additional observations from a re-analysis of the deposited data

How the results depend on the processing

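No member of the 9 fitted changed sign in 141 alternative values, of which 129 moved by less than 1 standard error. Part of these could not move, since another filter, no trend or a replicate block leaves the limma log2FC of a gene unchanged. The number of members past 2-fold was 6, with 3 when the filter was a mean of 100 and between 4 and 6 with 1 library left out. The filter at a mean of 100 removed Egfr, Flt4 and Kitl, whose means over all libraries were 52.7, 96.8 and 26.8. With no filter, or a mean of 1, the number was 7, as Kdr entered (log2FC 1.10, SE 0.78 with no filter). It was 4 with a pseudocount of 10. With the filter at a mean of 100 the genes called were 318 in all, with 2 other receptor kinases. The ligands were the least stable list: 0 were called with no filter, a mean of 100, a pseudocount of 10 or DESeq2, against 8 at an adjusted p under 0.05 alone, and 1 with a mean of 1, quantile normalization or limma without the trend. With 1 library left out the ligands called were between 1 and 2. Without a fold limit 7639 genes, 12 other receptor kinases, 8 ligands and 22 adaptors and inhibitors passed. Changes of sign were seen only in genes that did not pass the test: Errfi1 (0.020 with equal library totals), Hbegf (−0.0011 without Bmal1-/- replicate 2, up to 0.17 with another library left out), Lrig1 (−0.020 without Bmal1-/- replicate 1, up to 0.061) and Pdgfb (−0.21 with quantile normalization and −0.24 without wild-type replicate 1, up to 0.44). The cause was not tested. With the replicate number as a block 1056 genes were called, among them all 1046 called without it. Same-numbered libraries did not deviate together (correlation across genes −0.02). That cannot tell whether they shared a day or a batch, and the labels do not say. edgeR called 1091 genes and DESeq2 862, with 1036 and 837 shared with limma. Genes of few reads, such as Kdr, Egf and Tgfa, are limited by depth.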
